A study of Mus musculus with 6 samples.

Results

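The myelin protein genes Mbp, Mog, Mag, Mobp, Cnp, Mal, Opalin, Cldn11 and Ermn were followed in polyA RNA from whole cortical tissue of C57BL/6 mice at 6 and at 16 months of age. They were chosen by name, and these 9 genes stand among 38355 genes listed in the count tables. All 9 passed the filter on low counts, which left 17120 genes for testing. The tissue was the dissected cortical hemisphere, with 3 brains at 6 months and 3 at 16 months. No transgene or treatment is given for any of the 6 mice. The labels do not give the sex, and the study's methods name males for its RNA sequencing, in the section on sorted cells. The sample titles and age labels give 6 months for the younger mice, whereas the housing text in the same labels speaks of 3 months. The 6-month age was used here. The question that the comparison addresses is how gene expression in the cortex differs between young and aged mice.

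Myelin is the spiral of membrane that oligodendrocytes wrap around axons in the central nervous system. Its compact part is held together by small basic and hydrophobic proteins. The outermost and innermost turns carry adhesion proteins, and the cytoplasmic channels and the cell body hold enzymes and cytoskeletal proteins that shape the sheath. In the cortex, myelin is densest in the deep layers and in the white matter beneath them, and oligodendrocyte precursors persist throughout adult life.

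The 6 libraries held 29797253 to 46519280 counts on genes. Levels are given in CPM, a gene's counts normalised to the size of its library, after TMM scaling, which adjusts library sizes in edgeR. Pairs of 6-month libraries differed by a chi-square per degree of freedom of 2.58 to 4.12, and pairs of 16-month libraries by 7.87 to 25.6, so that the older samples were less alike and no pair lay within sampling noise. Neuronal genes were abundant. The neuronal list summed to 7390 to 7543 CPM at 6 months and 7248 to 7942 CPM at 16 months. Lists for regions that border the cortex were examined too. They were chosen with earlier results of these data known, so their counts are a description and no independent test. In the edgeR test described below, 5 of 9 thalamic genes, 3 of 6 dentate gyrus genes, 2 of 9 striatal genes and 1 of 6 choroid plexus genes passed, all upward. Over all genes tested, 0.783% passed upward. Without any one of the 6-month libraries or 16-month replicate 3, the calls in these 4 lists were 2, 2, 0 and 1. The thalamic list summed to 107 to 111 CPM at 6 months and 135 to 145 CPM at 16 months, and the dentate gyrus list to 67.6 to 70.8 and 89.0 to 92.4 CPM. The striatal list summed to 824 to 845 and 932 to 938 CPM, and the choroid plexus list to 16.8 to 17.8 and 25.2 to 28.2 CPM. No gene of these 4 lists was at 0 in any library, the lowest being the thalamic gene Shox2 with 0.0853 to 0.133 CPM at 6 months. The part of these lists in the differences of the myelin genes was not tested.

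The 9 genes together took a share of the counts that hardly moved. Their summed level was 5577, 5536 and 5604 CPM in the 6-month replicates 1, 2 and 3, and 5673, 5461 and 5588 CPM in the 16-month replicates. The ages overlapped. Most of the sum came from Mbp and Mobp, with means of 3080 and 1422 CPM at 6 months, so it says little about the other genes. Mbp alone was ninth in level among all genes tested, and Mobp stood at rank 29, followed by Cnp at 418 and Mal at 576. Opalin, at rank 7897, was the least abundant of the set.

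Between genes, levels were compared per kilobase of exon, with all annotated exons of a gene joined. This length ran from 1704 bases for Mog to 8469 for Mbp. Where the transcripts of a gene use only part of these exons, its level is understated, so the order is not one of transcript numbers. At 6 months the order was Mbp with 364 ± 4.63 (SD, n = 3) CPM per kb, Mobp with 208 ± 3.01, Mal with 94.5 ± 3.28, Cnp with 91.4 ± 1.90, Cldn11 with 60.9 ± 1.60, Ermn with 38.2 ± 1.30, Mog with 37.8 ± 1.55, Mag with 33.1 ± 1.37 and Opalin with 7.86 ± 0.278. Mal and Cnp overlapped over the 3 samples, as did Ermn and Mog, and the other neighbours in the order were separate. At 16 months Ermn, with 28.3 ± 4.68 (SD, n = 3) CPM per kb, stood below Mog with 41.6 ± 0.846 and Mag with 33.7 ± 3.48. In that order Mal and Cnp again overlapped, and so did Mag and Ermn.

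**Figure D1:**
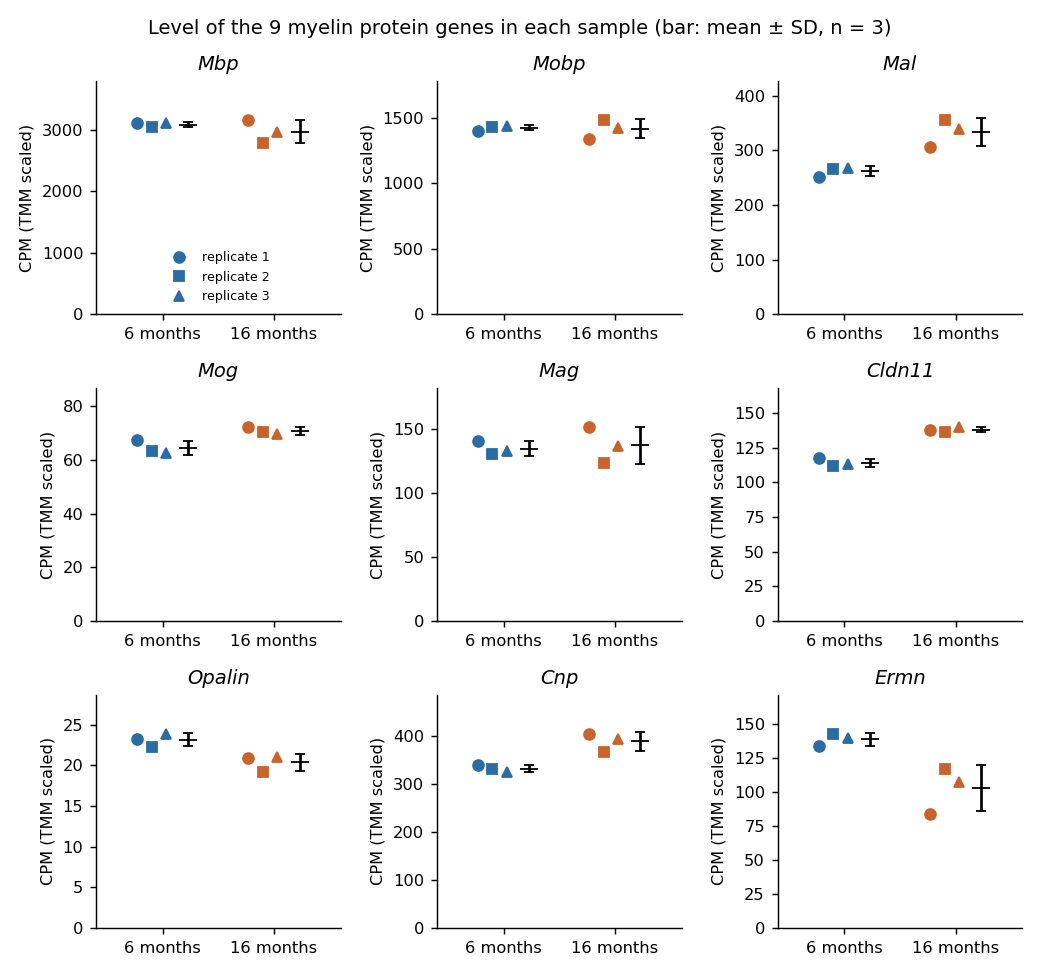
Level of each myelin protein gene in each of the 6 libraries, in CPM after TMM scaling, with 1 panel per gene and the age in months on the horizontal axis. The 16-month points of Mal and Cldn11 lie above all 6-month points, those of Ermn and Opalin lie below them, and those of Mbp, Mag and Mobp overlap with them. Bars show the mean ± SD of 3 libraries, and Mog and Cnp are separate upward with a smaller fold change than Mal and Cldn11.

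Of the 9 genes, 2 rose with age and none fell in the edgeR quasi-likelihood test at a Benjamini-Hochberg adjusted p under 0.05. Mal was 1.27-fold and Cldn11 1.21-fold higher at 16 months. Over all genes tested, 0.783% were called higher and 0.888% lower. At an unadjusted p under 0.05 in the same test, 4 of the 9 were higher and 2 lower, and the DESeq2 Wald test called 3 higher and 1 lower at the adjusted threshold. The 3 samples of one age were separate from the 3 of the other in 6 genes. Mog, Cnp, Mal and Cldn11 were higher in every 16-month sample, and Opalin and Ermn were lower in every one. Over all genes tested, 12.2% were separate upward and 11.5% downward. An unadjusted p under 0.05 was found in 6 of the 9 genes and in 17.5% of all genes. The median log2 fold change (16 over 6 months) was 0.026 for the 9 genes and 0.0014 for all genes tested. In bulk tissue, fewer cells of a type and less RNA per cell cannot be told apart, which holds for every difference given here.

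The call of Mal and of Cldn11 needed all 3 of the 6-month samples and 16-month replicate 3. Leaving out any one of these 4 libraries moved the adjusted p to 0.146 to 0.177 for Mal and to 0.113 to 0.187 for Cldn11 in the same edgeR test. The log2 fold changes were 0.32 to 0.36 and 0.26 to 0.30. Most calls over all genes were lost in the same fits, with 48 to 58 genes called, 0.28% to 0.34%, against 286 with all 6 libraries. Leaving out 16-month replicate 1 or 2 kept both calls and added Cnp, upward, and Ermn, downward. Calls over all genes rose as well, to 5.73% without replicate 1 and 12.7% without replicate 2. Offsets that remove trends with GC content and exon length from each library gave 6 calls among the 9 genes, Mog, Cnp, Mal and Cldn11 upward and Mbp and Ermn downward, with 14.2% of all genes called.

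**Figure D2:**
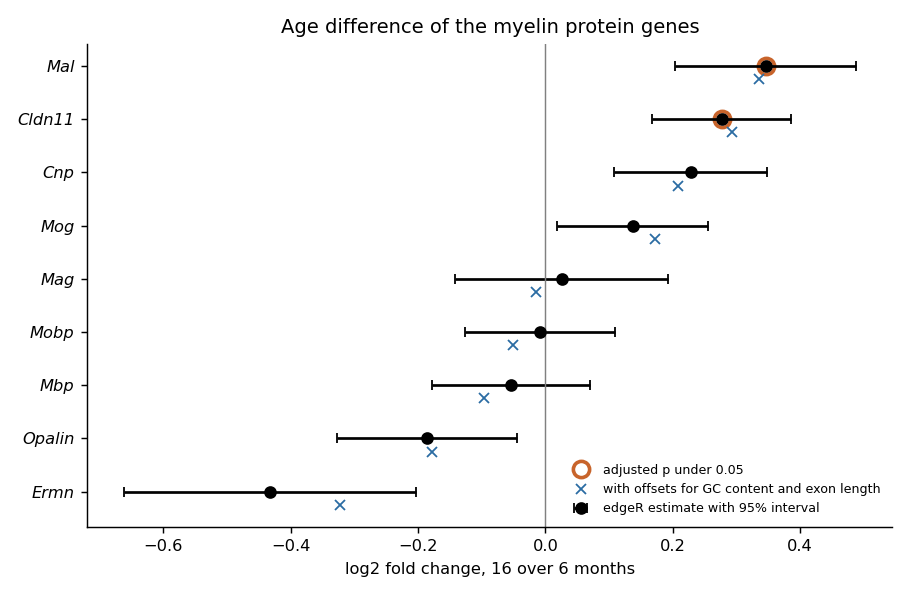
Log2 fold change of each gene, 16 over 6 months, with its 95% confidence interval from the edgeR fit on 3 libraries per age. The intervals of Mal, Cldn11, Cnp and Mog lie above 0 and those of Ermn and Opalin below 0. Rings mark the adjusted p under 0.05 of Mal and Cldn11, and crosses give the estimate with offsets for GC content and exon length.

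Among the proteins of compact myelin, Mbp encodes myelin basic protein, which zips the cytoplasmic faces of the membrane together. The gene (ENSMUSG00000041607) lies on the plus strand of chromosome 18 from 82475146 to 82585637 in GRCm38. Its level was 3105, 3035 and 3101 CPM in the 6-month replicates, and 3157, 2788 and 2959 CPM in the 16-month replicates. The highest and the lowest value both belonged to the older mice, and the ages overlapped. The log2 fold change was -0.054 with a 95% interval of -0.18 to 0.070, and the adjusted p in the edgeR test was 0.669.

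Mobp encodes a second small basic protein of compact myelin. The gene (ENSMUSG00000032517) lies on the plus strand of chromosome 9 from 120149707 to 120181484. It stood at 1399, 1431 and 1437 CPM at 6 months and at 1337, 1482 and 1421 CPM at 16 months. The older samples lay on both sides of the younger ones. The mean was 1422 ± 20.6 (SD, n = 3) CPM against 1414 ± 72.9, the log2 fold change was -0.0088 with a 95% interval of -0.13 to 0.11, and the adjusted p in the edgeR test was 0.951. Mobp shares 79 bases, 1.15% of its exons, with the transcript Gm38642 on the same strand.

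Mal encodes a small membrane protein of lipid rafts that takes part in sorting proteins to compact myelin. The gene (ENSMUSG00000027375) lies on the minus strand of chromosome 2 from 127633226 to 127656695. Its level was 252, 267 and 269 CPM at 6 months and 306, 356 and 339 CPM at 16 months. All 3 older samples were above all younger ones. The mean went from 262 ± 9.10 (SD, n = 3) to 334 ± 25.02 CPM, a log2 fold change of 0.35 (SE 0.064) at an adjusted p of 0.0275 in the edgeR test. Of the genes called, Mal had the larger rise.

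Among the adhesion and surface proteins, Cldn11 encodes claudin 11, which forms the tight junction strands of central myelin. The gene (ENSMUSG00000037625) lies on the plus strand of chromosome 3 from 31149920 to 31164324. It had 117, 112 and 113 CPM at 6 months and 138, 136 and 140 CPM at 16 months. The older samples formed a narrow group above the younger ones. The mean went from 114 ± 2.98 (SD, n = 3) to 138 ± 1.87 CPM, a log2 fold change of 0.28 (SE 0.049) at an adjusted p of 0.0251 in the edgeR test.

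Mal and Cldn11 rose together, and the 250 bases before their RefSeq start (assembly GRCm38.p6) are printed here to show that the windows differ in make-up. The Mal window (chr2:127656696-127656945, minus strand) holds 7 CpG and the Cldn11 window (chr3:31149670-31149919, plus strand) holds 19, against a median of 6 over 32817 windows of that length. Fewer CpG than Cldn11 were found in 80.3% of all windows, and fewer than Mal in 53.7%. No letters are in capitals, since neither window holds any of the motifs searched on both strands, which were ACAAAG or ACAATG for SoxE factors, CTGGNAC for Myrf and CAGCTG for an E-box. These motifs were present in 25.2%, 16.1% and 13% of all windows. The sequences run 5′ to 3′.
Mal: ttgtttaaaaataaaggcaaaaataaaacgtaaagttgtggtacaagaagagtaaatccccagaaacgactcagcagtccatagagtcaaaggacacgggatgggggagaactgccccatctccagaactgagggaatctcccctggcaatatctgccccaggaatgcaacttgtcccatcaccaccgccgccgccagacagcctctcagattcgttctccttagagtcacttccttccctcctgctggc
Cldn11: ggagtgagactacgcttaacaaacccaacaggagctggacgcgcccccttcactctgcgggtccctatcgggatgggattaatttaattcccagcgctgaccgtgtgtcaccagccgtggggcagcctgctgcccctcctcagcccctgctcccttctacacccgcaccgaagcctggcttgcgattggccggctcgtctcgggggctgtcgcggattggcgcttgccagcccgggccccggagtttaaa

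Mog encodes a glycoprotein of the immunoglobulin family on the outermost face of the sheath. The gene (ENSMUSG00000076439) lies on the minus strand of chromosome 17 from 37010743 to 37023398. It stood at 67.4, 63.4 and 62.5 CPM at 6 months and at 72.5, 70.6 and 69.6 CPM at 16 months. The ages were separate by a small gap. The log2 fold change was 0.14 with a 95% interval of 0.019 to 0.26, and the adjusted p of 0.222 in the edgeR test missed the threshold.

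Mag encodes the myelin-associated glycoprotein, which faces the axon at the innermost turn. The gene (ENSMUSG00000036634) lies on the minus strand of chromosome 7 from 30899176 to 30914873. It had 141, 130 and 133 CPM at 6 months and 152, 123 and 136 CPM at 16 months. As for Mbp, the highest and the lowest value came from 16-month replicates 1 and 2. The log2 fold change was 0.026 with a 95% interval of -0.14 to 0.19, and the adjusted p in the edgeR test was 0.894.

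Opalin encodes a sialylated transmembrane protein found in oligodendrocytes of the central nervous system. The gene (ENSMUSG00000050121) lies on the minus strand of chromosome 19 from 41061710 to 41077113. It had 23.2, 22.3 and 23.9 CPM at 6 months and 20.9, 19.2 and 21.0 CPM at 16 months. Every older sample was below every younger one. The mean was 23.2 ± 0.819 (SD, n = 3) CPM against 20.4 ± 1.04, the log2 fold change was -0.19 with a 95% interval of -0.33 to -0.044, and the adjusted p of 0.179 in the edgeR test missed the threshold.

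Among the cytoplasmic and cytoskeletal proteins, Cnp encodes the cyclic nucleotide phosphodiesterase that keeps the cytoplasmic channels of the sheath open. The gene (ENSMUSG00000006782) lies on the plus strand of chromosome 11 from 100574904 to 100591729. Its level was 339, 333 and 326 CPM at 6 months and 406, 368 and 395 CPM at 16 months. The ages were separate upward. The mean was 333 ± 6.90 (SD, n = 3) CPM against 390 ± 19.5, the log2 fold change was 0.23 (SE 0.054), and the adjusted p of 0.0728 in the edgeR test missed the threshold. Cnp shares 154 bases, 4.23% of its exons, with Dnajc7 on the opposite strand, and it is not given whether the counting used strand.

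Ermn encodes ermin, an actin-binding protein of mature oligodendrocytes. The gene (ENSMUSG00000026830) lies on the minus strand of chromosome 2 from 58045113 to 58052864. It stood at 134, 143 and 139.5 CPM at 6 months and at 83.9, 117 and 108 CPM at 16 months. All 3 older samples were lower, and 16-month replicate 1 was lower than the other two. The mean was 139 ± 4.72 (SD, n = 3) CPM against 103 ± 17.02, the log2 fold change was -0.43 (SE 0.10), and the adjusted p of 0.0744 in the edgeR test missed the threshold. Ermn has the lowest GC content of the set, 38.0%. Its offset, the trend with GC content plus the remaining trend with exon length, was -0.27 on the log2 scale in 16-month replicate 1. In 16-month replicate 2 it was 0.14, both relative to the mean over the libraries. Removing these offsets from every library gave a log2 fold change of -0.32 and an adjusted p of 5.67e-05 in edgeR. Without 16-month replicate 1 the values were -0.31 and 0.00321. Galnt5, on the opposite strand, shares 237 bases with Ermn, 6.52% of its exons.

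The windows of the 2 genes that were lower in every older sample are shown for comparison, with the SoxE match in capitals. The Ermn window (chr2:58052865-58053114, minus strand) holds 3 CpG and the Opalin window (chr19:41077114-41077363, minus strand) holds 4. Each has 1 match to a SoxE motif, a feature of 25.2% of all windows, and none to the Myrf or E-box letters. The match is a description of the letters and not a binding site, and it does not set these genes apart from those that were higher. Of the other genes separate upward, the Cnp window holds 1 SoxE and 2 Myrf matches and the Mog window 1 Myrf match.
Ermn: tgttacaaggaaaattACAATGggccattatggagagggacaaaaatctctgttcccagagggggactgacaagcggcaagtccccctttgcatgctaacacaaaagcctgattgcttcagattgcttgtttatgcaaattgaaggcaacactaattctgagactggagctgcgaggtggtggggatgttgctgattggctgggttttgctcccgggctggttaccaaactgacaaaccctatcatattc
Opalin: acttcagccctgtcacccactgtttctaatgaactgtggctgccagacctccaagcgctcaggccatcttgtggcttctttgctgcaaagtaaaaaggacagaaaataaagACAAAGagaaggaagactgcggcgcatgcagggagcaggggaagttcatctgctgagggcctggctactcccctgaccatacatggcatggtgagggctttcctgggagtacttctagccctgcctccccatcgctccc

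The ratio of each gene to Mbp within a library does not depend on how library sizes were scaled. Per 1000 Mbp counts there were 81.2, 87.9 and 86.6 Mal counts at 6 months and 97.1, 128 and 114 at 16 months. For Cldn11 the ratio was 37.8, 36.7 and 36.5 against 43.6, 48.9 and 47.4. For Ermn it was 43.1, 47.1 and 45.0 against 26.6, 41.9 and 36.4. The ages were separate in all 3 ratios, upward for Mal and Cldn11 and downward for Ermn. Cnp had 109, 109.7 and 105 counts per 1000 Mbp counts at 6 months and 129, 132 and 134 at 16 months, and was separate upward too, as was Mog with 21.7, 20.9 and 20.2 against 23.0, 25.3 and 23.5. Opalin, with 7.48, 7.35 and 7.72 against 6.62, 6.88 and 7.105, was separate downward. The Mag ratio, 45.4, 42.9 and 42.9 against 48.0, 44.2 and 46.1, overlapped between the ages. So did the Mobp ratio, with 450.5, 471.5 and 463.4 against 423.6, 531.7 and 480.3. The share of all genes whose ratio to Mbp is separate between the ages was not computed. In CPM, 12.2% of all genes tested were separate upward and 11.5% downward. These ratios show unequal change between the genes and not which of them changed.

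**Figure D3:**
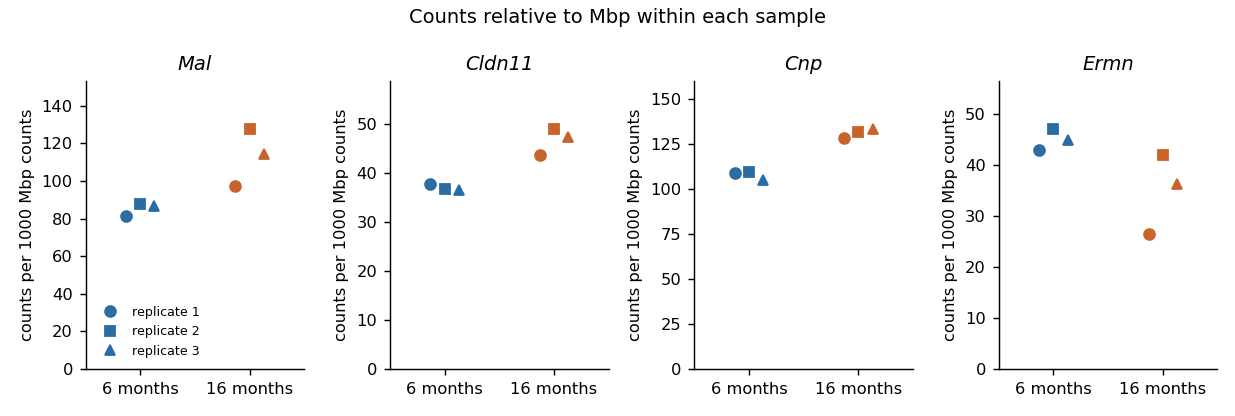
Counts of Mal, Cldn11, Cnp and Ermn per 1000 Mbp counts of the same library, by age, with 1 panel per gene and 1 point per library shaped by replicate number. The 16-month points lie above all 6-month points for Mal, Cldn11 and Cnp and below them for Ermn.

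The 16-month samples were also more spread. The SD of log2 CPM had a median over the 9 genes of 0.049 at 6 months and 0.075 at 16 months, and was larger at 16 months in 7 of 9 genes. Over all genes tested the medians were 0.063 and 0.13, and 75.5% of genes had the larger SD at 16 months. Ermn was the most spread, with an SD of 0.25 at 16 months against 0.049 at 6 months, and Cldn11 the least, with 0.020 against 0.038.

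The wider set of genes of mature oligodendrocytes was described by 4 lists that hold no member. Of their 43 genes, none was called higher and 4 were called lower in the edgeR test, and the median log2 fold change was -0.11. The unadjusted p was under 0.05 upward in 1 and downward in 15, the DESeq2 Wald test called 0 higher and 7 lower, and the offsets gave 2 higher and 16 lower. The ages were separate upward in 2 of the 43 and downward in 16. Over all genes tested, edgeR called 0.888% lower, and 12.2% were separate upward and 11.5% downward. In either direction, 17.5% of all genes had an unadjusted p under 0.05 in edgeR, DESeq2 called 2.67%, and the offsets gave 14.2%. The 14 other myelin membrane and adhesion genes had a median log2 fold change of -0.14 and no call in edgeR or DESeq2, with 1 upward and 5 downward at an unadjusted p under 0.05. The edgeR test called 1 of 9 genes for myelin lipids lower, 2 of 11 gap junction, iron and metabolic genes, and 1 of 9 cytoskeletal and scaffold genes. In these lists 5, 1 and 2 genes had positive log2 fold changes, and 2, 5 and 4 were separate downward.

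Aspa encodes aspartoacylase, which releases acetate from N-acetylaspartate for lipid synthesis in oligodendrocytes. It had 31.8, 33.9 and 35.6 CPM at 6 months and 18.4, 25.8 and 24.1 CPM at 16 months, a log2 fold change of -0.57 (SE 0.11) with an adjusted p of 0.0313 in the edgeR test. Anln, which encodes the septin-associated protein anillin, had 95.5, 97.6 and 94.7 CPM against 64.6, 78.3 and 72.1, a log2 fold change of -0.42 (SE 0.070) with an adjusted p of 0.0194 in the edgeR test. In both genes every older sample was below every younger one, with 16-month replicate 1 the lowest, as for Ermn.

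Apod, which encodes the lipid carrier apolipoprotein D, had 236, 248 and 252 CPM at 6 months and 179, 199 and 192 CPM at 16 months, with an adjusted p of 0.0136 in the edgeR test. Car2 encodes carbonic anhydrase 2, an enzyme abundant in oligodendrocytes. It had 252, 262 and 269 CPM against 203, 224 and 213, with an adjusted p of 0.0314 in the edgeR test. The log2 fold changes were -0.37 for Apod and -0.29 for Car2, opposite in sign to those of Mal and Cldn11.

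All 9 precursor genes measured had positive log2 fold changes, with a median of 0.22, and 2 of them passed the edgeR test. Gpr17, a receptor of late precursors, rose from 39.8, 37.6 and 37.3 CPM to 62.3, 57.7 and 58.5 CPM, a log2 fold change of 0.64 (SE 0.057) with an adjusted p of 8.12e-04 in the edgeR test. Neu4, a sialidase gene, rose from 7.57, 8.47 and 7.94 CPM to 11.0, 10.1 and 10.95 CPM, with an adjusted p of 0.0256 in the edgeR test. The summed precursor list was 459 to 471 CPM at 6 months and 539 to 558 CPM at 16 months, without overlap. Ptprz1 alone made up the largest part of that sum, with a mean of 272 CPM at 6 months and 306 CPM at 16 months. Of 6 genes of newly formed oligodendrocytes, 4 had positive log2 fold changes, and only Tcf7l2 passed, a transcription factor gene that thalamic neurons also express, with 5.74, 5.93 and 5.77 CPM against 7.36, 8.17 and 8.14 CPM and an adjusted p of 0.0259 in the edgeR test. Bcas1, of the same list, was lower in every older sample, with a log2 fold change of -0.13 and an adjusted p of 0.218 in the edgeR test. The call of Gpr17 held with each library left out in turn, at an adjusted p of at most 0.0159. Those of Aspa, Anln, Apod, Car2, Neu4 and Tcf7l2 were lost without any one of the 6-month samples or 16-month replicate 3, where the adjusted p in edgeR was 0.0703 to 0.229.

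**Figure D4:**
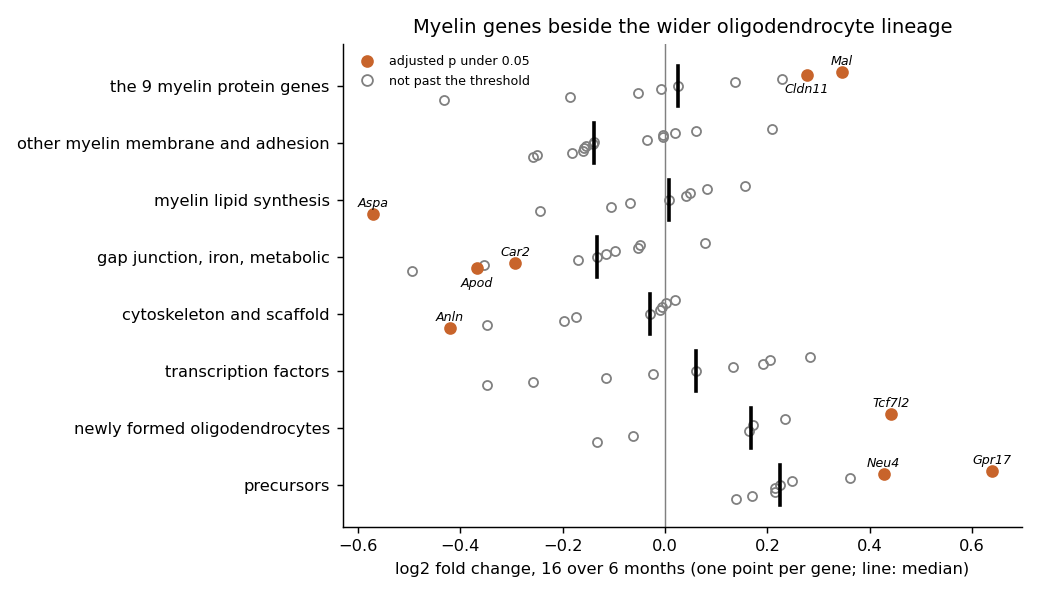
Log2 fold change, 16 over 6 months, of each gene of the 9 myelin protein genes and of 7 lists of the oligodendrocyte lineage, 1 point per gene, with the list median as a vertical line and filled points for an adjusted p under 0.05. The called genes of the mature lists other than the 9 myelin genes lie below 0, and those of the precursor and newly formed lists lie above 0.

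None of the 9 transcription factor genes of the lineage was called in edgeR or DESeq2, among them Myrf, Sox10 and Olig2, and their median log2 fold change was 0.061. The unadjusted p was under 0.05 in 3 of them, 1 upward and 2 downward. Of 10 genes of the node and paranode of the axon, edgeR called 0 and DESeq2 1, upward, with a median of 0.051 and 1 gene at an unadjusted p under 0.05. Among other cell types, neither tool called any of 7 neuronal, 7 endothelial or 4 tested Schwann cell genes, of which 2, 2 and 1 had an unadjusted p under 0.05 in edgeR. Of 9 astrocyte genes edgeR called only Gfap, lower with a log2 fold change of -0.47, and of 10 microglial genes only Aif1, lower with -0.43. Positive log2 fold changes were found in 6 of the 9 astrocyte and 4 of the 10 microglial genes. At an unadjusted p under 0.05 in edgeR, 5 astrocyte genes were higher and 1 lower, and 1 microglial gene was higher and 1 lower. The call of Aif1 was lost without any one of the 6-month libraries or 16-month replicate 3, at an adjusted p of 0.145 to 0.184 in edgeR. The DESeq2 Wald test also called 3 astrocyte genes and 1 microglial gene higher. The summed astrocyte list was 6445 to 6803 CPM at 6 months and 6955 to 7647 CPM at 16 months, and the summed microglial list 504 to 527 and 508 to 524 CPM. The part of these lists in the differences of the myelin genes was not tested.

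As a description of shared pattern, the log2 CPM of each gene was centred and the 9 profiles were averaged over the 6 samples. The 5 genes nearest to that mean profile, of 10191 candidates with a mean of at least 10 CPM, were Sae1, Bcat1, Ei24, Tmcc1 and Rnf181, at a root mean square difference of 0.011 to 0.013. The mean profile itself varied little, with an SD of 0.023. The 9 genes lay farther from it than these, between 0.050 for Mobp and 0.28 for Ermn, so the mean stands for no single one of them.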

How the data were processed

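PolyA RNA from 3 cortical samples at 6 months and 3 at 16 months was sequenced by the authors (TruSeq libraries, paired-end), and the deposited files hold raw counts per Ensembl gene. Per the labels, CASAVA 1.8.2, STAR 2.3.0e and featureCounts 1.5.0-p1 were used with mm10. The study's methods name HTSeq for counting, and the files end in HTSeq-style summary lines. The annotation release and strand setting are not given in the sources used here. Summary lines were left out (no feature, 22.0% to 27.7%, and ambiguous, 1.42% to 1.57%, of the gene, no-feature and ambiguous counts together). Symbols and exons came from GENCODE M21 (GRCm38), which matched 36602 genes and missed 1753.

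Counts were filtered (filterByExpr), TMM-scaled and fitted in edgeR 4.0.16 (R 4.3.3) with glmQLFit and glmQLFTest on age alone, with Benjamini-Hochberg adjustment over 17120 genes. A prior count of 2 was used for log2 CPM. The floor of 3 counts was 0.0645 to 0.101 CPM per library. The fit was tested on simulated counts. Exon overlaps and near-identical transcripts (97% over at least 100 bases, blastn 2.17.0, bedtools 2.31.1) were searched, with none for the 9 genes beyond the overlaps given. Promoter windows came from RefSeq (GRCm38.p6), which gave one for 8 of the 9 genes. The lists, tests and members were chosen with earlier results of these data known. Genes with values are the 9 members, up to 3 called genes of each list with the largest log2 fold changes, and the 5 genes nearest the mean profile. Called genes of the astrocyte and microglial lists are given by their log2 fold change, and those of the regional lists by their count. Alternatives covered scaling, filters, DESeq2 1.42.0, a robust and a newer quasi-likelihood fit, a replicate block, offsets for GC content and exon length (medians of 20 bins per library), and leaving out each library.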

Additional observations from a re-analysis of the deposited data

How the results depend on the processing

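Mbp, Mog, Cnp, Mal, Opalin, Cldn11 and Ermn kept the sign of their log2 fold change under all 16 alternatives, Mobp under 15 and Mag under 13. Mag and Mobp passed the threshold under none. With another scaling, at least 10 counts in every sample, a robust fit or a newer quasi-likelihood fit, 270 to 291 genes were called against 286, and of the 9 genes Mal and Cldn11. Without a filter 648 genes and 4 of the 9 were called, and with the DESeq2 Wald test 470 and 4, in both cases Mal, Cldn11 and Cnp upward and Ermn downward. Offsets for GC content and exon length gave 2425 genes and 6 of the 9, adding Mog upward and Mbp downward, the latter with a log2 fold change of -0.097 and an adjusted p of 0.0442 in edgeR. The median of the 9 genes then became -0.015 in place of 0.026, and the log2 ratio of their summed levels -0.033 in place of 4.19e-04. Leaving out 1 library gave 48 to 2211 genes called, 0 to 4 of the 9, and a median of 0.0013 to 0.096. With the offsets, an alternative chosen after seeing the data, it gave 4 of the 9 (6-month replicate 2 or 3 left out), 5 (6-month replicate 1 or 16-month replicate 2 or 3) or 7 (16-month replicate 1). The share of all genes called in those fits is not given here, so these counts cannot be read as particular to the 9 genes. With the offsets and all libraries, 14.2% of all genes were called. The cause of these shifts was not tested.

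Both ages carry replicate numbers 1 to 3, but the samples are different mice. Same-numbered samples deviated from their age means with correlations of 0.18, 0.096 and 0.035, and differently numbered samples with -0.13 to 0.038. Each 6-month replicate correlated best with its own number, whereas 16-month replicate 3 correlated best with 6-month replicate 2 (0.038). The fit on age alone did not take the numbers as pairs, and whether they mark a shared handling was not tested. A replicate block gave 783 genes and 4 of the 9, and with the GC and length offsets 3321 and 7, with a median of -0.015. With 3 samples per age, p-values weigh the age difference against the spread between these mice, which includes counting error. In edgeR that spread is estimated with information from all genes tested.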
